A study of Mus musculus with 12 samples.

Results

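The Ifitm genes (interferon-induced transmembrane protein) encode small membrane proteins of the CD225 family, and 4 of them, Ifitm1, Ifitm2, Ifitm3 and Ifitm6, lie side by side on mouse chromosome 7. They were followed here in RNA-seq of whole mouse cornea, the clear front tissue of the eye. The 4 members were chosen by name from the 28548 lines of the deposited gene table, and all 4 were among the 21203 genes tested. The choice was made with the values of these libraries known: Ifitm1 had been one of the strongest genes in the comparison of the dry eye model with untreated mice. The difference between those groups is therefore given for the members as a description, without the p-value of a member, and so are all comparisons that use control or dry eye model libraries; for these only the number of members past the threshold is given, beside the share of all genes.

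IFITM proteins sit in the plasma membrane and in endosomes, where they hinder the fusion of enveloped viruses with the cell. Type I and type II interferons raise the transcription of several family members in most cell types studied. Interferon response genes often carry a pair of known promoter elements, the interferon-stimulated response element (ISRE) and the gamma-activated site (GAS). Epithelia of barrier tissues also make IFITM proteins without infection. Ifitm1 and Ifitm3 are further known as surface markers of early mouse germ cells.

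All mice were wild type, and the labels name no strain, age or sex. The groups were mice with dry eye disease (DED) given exosomes intravenously (3 libraries), mice with DED given exosomes as an eye drop (2 libraries used of 3 columns), DED model mice with no exosome treatment named (3 libraries), and untreated controls (3 libraries). The series describes the exosomes, which are small vesicles released by cells, as derived from stem cells. No vehicle group is named in the labels, and they do not say how DED was induced, at what dose exosomes were given, or how many animals or eyes went into a library. P-values therefore measure the spread between these libraries, whatever its source, and all 12 libraries carry 1 batch date.

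The table held log2 of a whole read count plus 1. Counts were recovered from it and summed to between 8956553 and 14263045 per library, lowest in the intravenous group (8956553 to 9501661). The third eye drop column equalled the mean of the log2 values of the other 2 for all 28548 lines and was left out. Counts were divided by size factors, and the result is called the normalized count. The summed level of 10 corneal epithelial markers (Krt12, Pax6 and others) was between 904624 and 1082648 normalized counts in the intravenous group, 931226 and 947676 in the eye drop group, 843502 and 1073687 in DED and 711320 and 1019444 in control, and none of the 10 was at 0 in a whole group. Markers of neighbouring tissue stood out in single libraries: retina in the third DED library, lens in the second eye drop library and muscle in the first and second intravenous libraries. Values without the library highest in each of these tissues (the third DED, second eye drop and first intravenous libraries) are given where they change a result; the second intravenous library stays in them.

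The promoters of the members differed in the sequences that interferon-activated factors are known to bind. The windows below run from 250 bases before to 50 bases after the start of transcription in RefSeq (GRCm38.p6), and are shown because the response to interferon gave the family its name. Capitals mark matches to an ISRE core (GAAANNGAAA) or a GAS (TTCNNNGAA), searched on both strands. Each is on the strand of its gene: Ifitm1 at chr7:140967826-140968125 on the plus strand, and on the minus strand Ifitm2 at chr7:140955912-140956211, Ifitm3 at chr7:141010695-141010994 and Ifitm6 at chr7:141016843-141017142.
Ifitm1: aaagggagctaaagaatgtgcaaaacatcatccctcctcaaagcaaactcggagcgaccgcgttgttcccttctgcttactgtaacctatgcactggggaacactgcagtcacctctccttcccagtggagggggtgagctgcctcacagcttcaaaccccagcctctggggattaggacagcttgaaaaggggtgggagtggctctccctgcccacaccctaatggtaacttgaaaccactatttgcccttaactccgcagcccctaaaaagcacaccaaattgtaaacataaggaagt
Ifitm2: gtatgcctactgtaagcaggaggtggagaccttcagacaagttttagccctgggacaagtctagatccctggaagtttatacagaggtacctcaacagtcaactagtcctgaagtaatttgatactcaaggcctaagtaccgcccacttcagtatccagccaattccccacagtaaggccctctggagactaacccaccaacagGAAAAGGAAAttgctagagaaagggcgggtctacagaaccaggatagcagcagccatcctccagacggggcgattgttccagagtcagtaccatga
Ifitm3: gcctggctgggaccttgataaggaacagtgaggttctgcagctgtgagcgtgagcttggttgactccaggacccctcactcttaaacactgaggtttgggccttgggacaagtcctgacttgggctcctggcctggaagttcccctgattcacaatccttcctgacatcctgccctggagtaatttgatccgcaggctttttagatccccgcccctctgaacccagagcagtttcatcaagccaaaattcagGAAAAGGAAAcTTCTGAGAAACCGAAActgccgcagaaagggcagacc
Ifitm6: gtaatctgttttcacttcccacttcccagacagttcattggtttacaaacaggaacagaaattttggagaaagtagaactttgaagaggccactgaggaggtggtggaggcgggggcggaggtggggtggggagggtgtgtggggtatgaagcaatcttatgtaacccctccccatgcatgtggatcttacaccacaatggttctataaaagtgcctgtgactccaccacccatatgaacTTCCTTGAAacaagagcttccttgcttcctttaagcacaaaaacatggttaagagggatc

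The Ifitm3 window held 2 ISRE cores, at bases 3 to 12 and 20 to 29 after the start, and a GAS at bases 14 to 22 that overlaps the second of them, so that the capitals there run together. Of 32851 promoter windows of mouse genes, 3.44% held an ISRE core and 0.23% held 2 or more. The Ifitm2 window held 1 ISRE core, at bases -46 to -37, inside a run of 13 bases that it shares with Ifitm3 (caggaaaaggaaa). The Ifitm6 window held 1 GAS, at bases -10 to -2, as did 8.3% of all windows. The Ifitm1 window held neither motif. Among the 63 genes of the interferon lists used below that had a window, 26 held an ISRE core in at least 1 window (41.3%) and 21 held a GAS (33.3%). These shares count genes, whereas those of all windows count windows, 32851 for 27025 genes, so they are not on the same unit. A match is a string of letters, not a shown binding site, and the absence of one covers only these 300 bases.

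**Figure D1:**
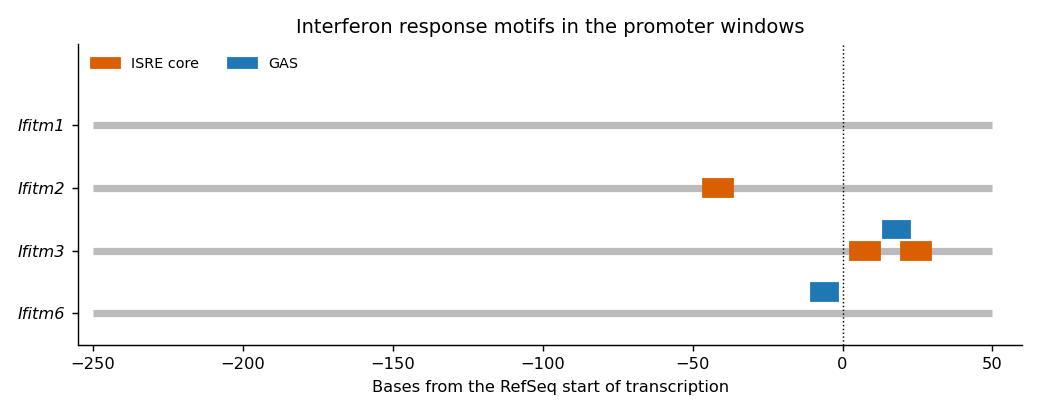
Matches to the ISRE core (orange) and the GAS (blue, drawn above the line) in the promoter windows of the 4 members, placed by bases from the RefSeq start of transcription (dotted line). Ifitm3 has 2 ISRE cores and a GAS just after the start, Ifitm2 has 1 ISRE core before it, Ifitm6 has 1 GAS, and Ifitm1 has none of either.

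Ifitm1 was by far the most abundant member. It had 20375, 20924 and 15571 normalized counts in the intravenous libraries, 16628 and 19490 in the eye drop libraries, 25515, 21928 and 20992 in the DED libraries and 7504, 8839 and 8441 in the control libraries. All 3 control libraries lay far below every other library. The lowest DED library lay just above the highest intravenous library, and the intravenous and eye drop libraries overlapped. Of all genes tested, 13.31% lay wholly above control in DED, 15.07% in the intravenous group and 17.54% in the eye drop group. By count, Ifitm1 ranked between 61 and 79 among all genes in the intravenous libraries, between 52 and 60 in the eye drop libraries, between 36 and 47 in the DED libraries and between 124 and 128 in the control libraries.

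The mean level of Ifitm1 was 18956 ± 2945 in the intravenous group (SD, n = 3), 18059 ± 2024 in the eye drop group (SD, n = 2), 22812 ± 2388 in DED and 8261 ± 685.4 in control (SD, n = 3 each). Its log2 fold change was 1.46 in DED over control (SE 0.18), a 2.76-fold difference. Both treated groups also stood above control, by a log2 fold change of 1.19 (SE 0.18) in the intravenous group and 1.13 (SE 0.20) in the eye drop group. Against DED the difference was -0.27 (SE 0.18) in the intravenous group and -0.34 (SE 0.20) in the eye drop group. Every eye drop and intravenous library lay below every DED library. Of all genes tested, 13.67% lay wholly below DED in the eye drop group and 8.876% in the intravenous group. The 95% intervals of the Ifitm1 differences from DED were -0.65 to 0.10 in the intravenous group and -0.75 to 0.08 in the eye drop group. They are descriptive and not a test, since the DED libraries had a part in the choice of the members.

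Ifitm3, the member best known for restricting viruses in endosomes, followed another order. It had 827.3, 1277 and 1429 normalized counts in the intravenous libraries, 563.8 and 646.9 in the eye drop libraries, 1042, 763 and 903.4 in the DED libraries and 274.8, 655.1 and 514.2 in the control libraries. The intravenous and DED libraries overlapped, all of them lay above all eye drop and control libraries, and the eye drop and control libraries overlapped. The first control library was the lowest of all 11. Of all genes tested, 13.31% lay wholly above control in DED and 15.07% in the intravenous group. Against the eye drop group, 12.43% of all genes lay wholly higher in the intravenous group and 13.67% in DED.

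The mean level of Ifitm3 was 1178 ± 312.9 in the intravenous group (SD, n = 3), 605.4 ± 58.8 in the eye drop group (SD, n = 2), 902.7 ± 139.5 in DED and 481.3 ± 192.3 in control (SD, n = 3 each). Its log2 fold change over control was 1.34 in the intravenous group (SE 0.28), 0.42 in the eye drop group (SE 0.31) and 0.98 in DED (SE 0.28). Without the first control library these became 0.98 in the intravenous group and 0.05 in the eye drop group, and 0.62 in DED. Against DED the log2 fold change was 0.36 in the intravenous group (SE 0.28), which turned to -0.26 when the counts were left unscaled, and -0.57 in the eye drop group (SE 0.31).

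Ifitm2, a relative of Ifitm3 that also acts in endosomes, was the lowest of the 3 members with a clear signal. It had 119.9, 112.5 and 169.8 normalized counts in the intravenous libraries, 140.9 and 135.2 in the eye drop libraries, 163.5, 194.1 and 186.6 in the DED libraries and 86.1, 148.8 and 77.7 in the control libraries. The DED libraries lay above all eye drop and control libraries and overlapped the intravenous ones. The second control library lay above both eye drop libraries. Of all genes tested, 13.31% lay wholly higher in DED than in control and 13.67% wholly higher in DED than in the eye drop group.

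The mean of Ifitm2 was 134 ± 31.2 in the intravenous group (SD, n = 3), 138.1 ± 4.07 in the eye drop group (SD, n = 2), 181.4 ± 15.9 in DED and 104.2 ± 38.8 in control (SD, n = 3 each). Its log2 fold change was 0.85 in DED over control (SE 0.25), -0.45 in the intravenous group over DED (SE 0.25) and -0.39 in the eye drop group over DED (SE 0.28). Over control it was 0.46 in the eye drop group (SE 0.28) and 0.40 in the intravenous group (SE 0.25), which turned to -0.26 when the counts were left unscaled. Single control libraries moved these values: without the second they were 1.13 in DED, 0.75 in the eye drop group and 0.68 in the intravenous group over control, and without the third 0.67, 0.28 and 0.22 in the same groups. Without the third intravenous library the intravenous value was 0.22.

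Ifitm6 was at or under the floor of 3 counts in every library. It had 0 counts in all 3 intravenous libraries, 2 and 0 in the eye drop libraries, 1, 3 and 2 in the DED libraries and 0 in all 3 control libraries. It passed the filter on low values (1 normalized count or more in 3 or more libraries) through 2 DED libraries and 1 eye drop library alone, so its presence among the tested genes already reflects those groups. No fold is given for it. A count of 0 allows up to 3 counts in a library.

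**Figure D2:**
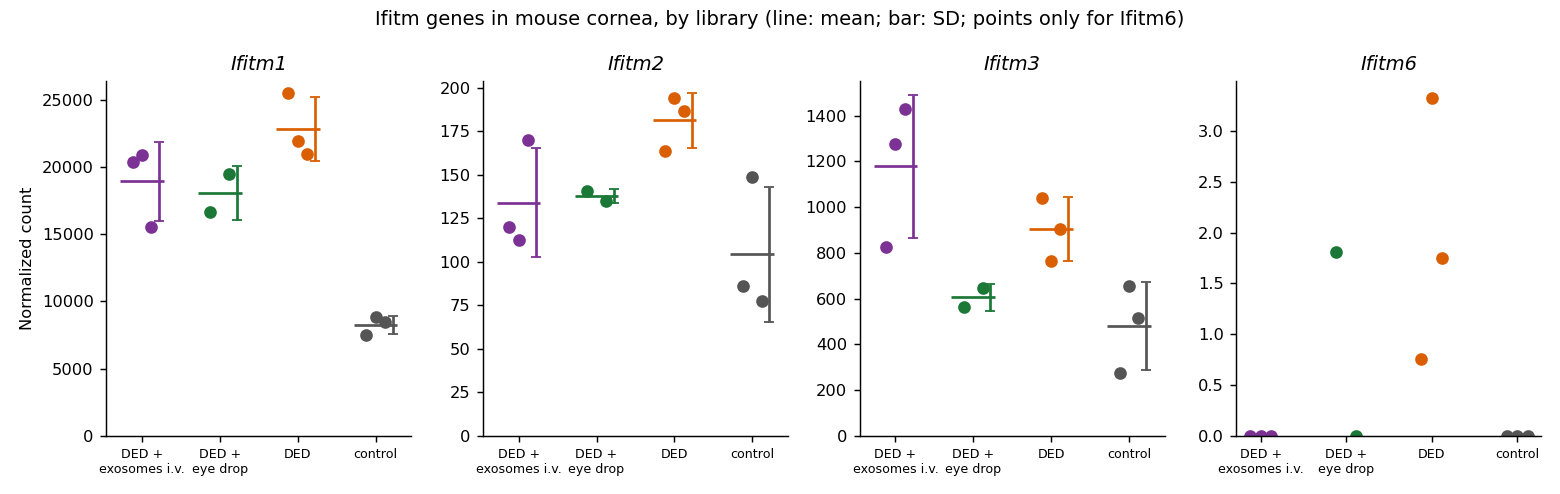
Normalized counts of the 4 members in each library (points), by group, with the group mean (line) and SD (bar); each panel has its own axis from 0, and Ifitm6, at no more than 3 counts, is shown as points only. Ifitm1 is at 15571 or above in every library outside control and at 8839 or below in control, whereas Ifitm3 is lower in the eye drop libraries than in the intravenous and DED libraries.

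Per length, the order of the members was the same as by count. With the longest coding transcript in GENCODE as the length (882 bases for Ifitm1, 655 for Ifitm2 and 678 for Ifitm3), the mean level per kilobase was 21493 normalized counts for Ifitm1, 1737 for Ifitm3 and 204.6 for Ifitm2 in the intravenous group. In control it was 9367 for Ifitm1, 709.9 for Ifitm3 and 159.1 for Ifitm2. Ifitm1 made up between 90.7% and 96.1% of the summed normalized counts of the 4 members in each library.

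The balance between Ifitm1 and Ifitm3 varied between libraries of a group. The ratio of their normalized counts was 24.6, 16.4 and 10.9 in the intravenous libraries, 29.5 and 30.1 in the eye drop libraries, 24.5, 28.7 and 23.2 in the DED libraries and 27.3, 13.5 and 16.4 in the control libraries. The eye drop ratios, from only 2 libraries, were the highest of the 11, just above the 28.7 of the second DED library. How often other gene pairs separate the groups in this way was not counted, so nothing is read from it. The intravenous and control ratios were more spread out than the DED ratios.

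The only comparison that uses no control or DED library is that of the 2 routes of treatment. In it, Ifitm1 differed by a log2 fold change of 0.06 in the intravenous over the eye drop group (SE 0.20, adjusted p = 0.947 by limma with Benjamini-Hochberg adjustment over all genes, 95% interval -0.35 to 0.48). Its direction turned under every other scaling, with values of -0.09 by the 75th percentile, -0.12 by library totals and -0.62 unscaled. Ifitm2 differed by -0.07 (SE 0.28, limma adjusted p = 0.965, 95% interval -0.65 to 0.52), or by -0.74 unscaled. Ifitm3 was higher in all 3 intravenous libraries than in both eye drop libraries, as were 12.43% of all genes tested. Its log2 fold change was 0.92 (SE 0.31, 95% interval 0.26 to 1.59). Its unadjusted limma p was 0.00965 and its adjusted p 0.408, so it did not pass. Its fold change was 0.77 by the 75th percentile, 0.75 by library totals and 0.24 unscaled, where the counts of the 2 groups overlapped. limma passed 0 of the 21203 genes in this comparison (0%), limma with precision weights (voom) also passed 0, and 1953 had an unadjusted p under 0.05. Without the third intravenous library 2.98% of genes passed, and with unscaled counts 6.1% passed; Ifitm1, Ifitm2 and Ifitm3 did not pass in either.

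In the comparisons that use control or DED libraries, the number of members past an adjusted p of 0.05 is given for Ifitm1, Ifitm2 and Ifitm3, since Ifitm6 was kept by the filter through the groups where it was seen. In DED over control 1 of 3 passed in limma, Ifitm1, beside 1.25% of all genes tested. In the intravenous group over control 2 of 3 passed, Ifitm1 and Ifitm3, beside 11.3% of all genes. In the eye drop group over control 0 of 3 passed, beside 0.00472% of all genes. There 1 was under an unadjusted limma p of 0.05, as were 2249 of the 21203 genes. It was Ifitm1, which passed in 7 of 23 alternative settings. These included voom (0.0424% of all genes), 75th percentile scaling (0.0849%) and a fit of only the 2 groups (0.929%). In the eye drop group over DED 0 of 3 passed, beside 0.193% of all genes, with 0 under an unadjusted p of 0.05 and 0 with voom. In the intravenous group over DED 0 of 3 passed, beside 1.45% of all genes, with 0 under an unadjusted p of 0.05 and 0 with voom. Unscaled, Ifitm1 and Ifitm2 passed there as lower, beside 16.2% of all genes. Because these libraries had a part in the choice of the members, nothing is read from the counts.

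The DED and control libraries were taken as paired by replicate number after the check described with the processing. The labels name no such pairing, so the counts of this fit rest on an assumption. In a fit of those 2 groups with the replicate number as a block 2 of 3 passed, Ifitm1 and Ifitm2, beside 14.6% of all genes. In the intravenous group over control Ifitm3 did not pass without the first control library, unscaled, or in limma without trend and robust. Ifitm1 did not pass there unscaled or without the 3 libraries with most retina, lens or muscle marker counts.

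**Figure D3:**
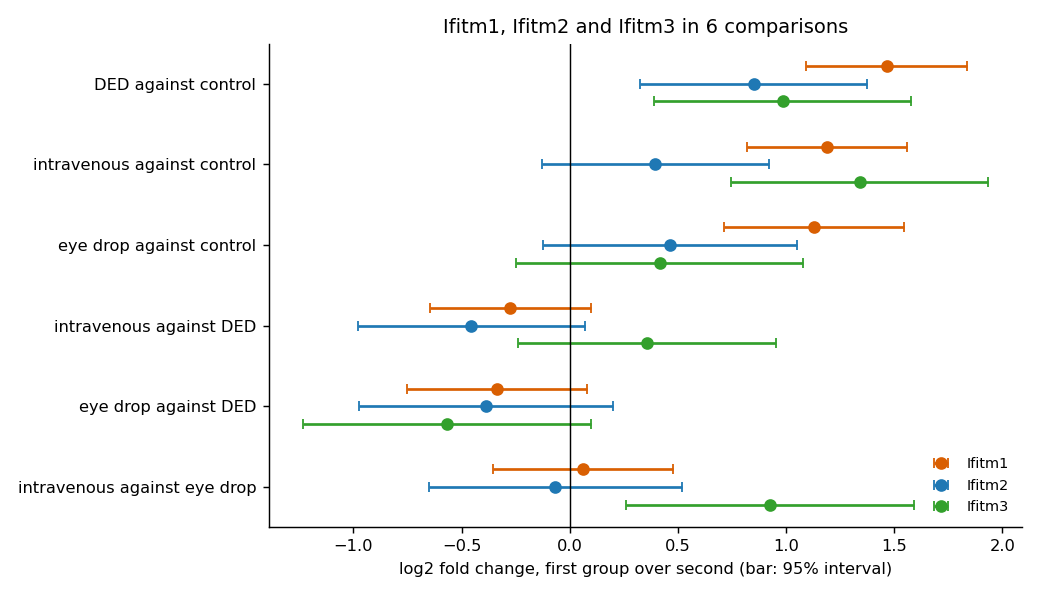
Log2 fold changes of Ifitm1, Ifitm2 and Ifitm3 in the 6 comparisons, first group over second, with 95% intervals from the limma fit. Intervals of comparisons that use control or DED libraries are descriptive and not a test, since those libraries had a part in the choice of the members. Ifitm1 is above 1 in all 3 comparisons with control, and Ifitm3 is highest in the intravenous group over control (1.34); the comparisons with control share the control libraries and those with DED share the DED libraries.

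Genes of the interferon response, with its receptors and signalling genes, were set beside the members. Of 83 tested genes in lists of interferon receptors and signalling (21), antiviral genes (46) and interferon-induced GTPases (16), 1 passed in DED over control, where 1.25% of all genes passed. It was Gbp2, a guanylate-binding protein that acts against intracellular pathogens, and it fell, to 300.3 ± 29.3 normalized counts in DED against 538.2 ± 52.4 in control (SD, n = 3 each; log2 fold change -0.84, SE 0.16, limma adjusted p = 0.0168). The median log2 fold change of the 83 genes was -0.09 in DED over control, beside 0.03 over all genes tested. By list it was -0.26 for receptors and signalling, -0.07 for antiviral genes and 0.27 for the GTPases. In the same comparison Ifitm1, Ifitm2 and Ifitm3 stood at 1.46, 0.85 and 0.98.

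Among the genes of the other lists with the smallest p in DED over control, none passed. Ifngr2, a chain of the interferon gamma receptor, differed by 0.51 (SE 0.17, limma adjusted p = 0.136), and Ifnar1, a chain of the type I receptor, by -0.56 (SE 0.21, adjusted p = 0.196). Ly6e, a membrane-anchored antiviral protein, differed by 0.48 (SE 0.18, limma adjusted p = 0.198), and Sp100, a nuclear body protein, by -0.95 (SE 0.38, adjusted p = 0.23). In the fit of DED and control alone that assumes pairing by replicate number, 14.6% of all genes passed, and 9 of the 83 did. Oasl1, Ly6e and Ifngr2 were higher and Gbp2, Adar, Sp100, Ifnar1, Ifih1 and Tap1 were lower in DED. The single call in the main fit became 0 without control library 3 or DED library 2 or 3, and 5 without the third intravenous library, where 5.77% of all genes passed.

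In the intravenous group over DED, where Ifitm1 stood at -0.27, Ifitm2 at -0.45 and Ifitm3 at 0.36, 20 of the 83 interferon genes rose (24.1%) and none fell, beside 1.45% of all genes. The median log2 fold change of the 83 was 1.19, against -0.04 over all genes. By list it was 0.197 for receptors and signalling, 1.465 for antiviral genes and 1.412 for the GTPases. Irf7, which drives type I interferon responses, rose to 4417 ± 2315 normalized counts in the intravenous group against 688.6 ± 172.3 in DED (SD, n = 3 each; log2 fold change 2.59, SE 0.49, limma adjusted p = 0.0422). Irf1, another interferon regulatory factor, rose by 0.83 (SE 0.18, adjusted p = 0.0297).

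Of the antiviral genes 14 of 46 rose. They included Psmb9 and Psmb8, subunits of the immunoproteasome, with log2 fold changes of 1.59 (SE 0.20) and 1.19 (SE 0.22), the RNA sensor family gene Oas1b with 1.61 (SE 0.25) and Sp100 with 2.39 (SE 0.38). Of the GTPases 3 of 16 rose, Gbp2 (1.58, SE 0.16), Ifi47 (1.83, SE 0.23) and Gbp3 (2.08, SE 0.39). The count of 20 depended on single libraries: it was 4 without DED library 1, 7 without DED library 2 and 5 without DED library 3, where 0.316%, 1.12% and 0.408% of all genes passed. It was 10 without either eye drop library (0.905% of all genes without the first, 0.886% without the second) and 10 without the second intravenous library (0.915%). It was 11 without the 3 libraries with most retina, lens or muscle marker counts (0.228%).

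In the intravenous group over control 31 of the 83 interferon genes rose (37.4%) and none fell, beside 11.3% of all genes, with a median of 1.18. Ifitm1, at 1.19, lay near that median, Ifitm3 at 1.34 above it and Ifitm2 at 0.40 below it, or at -0.26 with counts left unscaled. By list the median was 0.139 for receptors and signalling, 1.252 for antiviral genes and 1.92 for the GTPases. Ifitm1 thus lay below the medians of the antiviral genes and the GTPases, and Ifitm3 below that of the GTPases. Among the 31 were Psmb8 (log2 fold change 1.43, SE 0.22), Ifi47 (1.99, SE 0.23), Irf1 (1.01, SE 0.18) and Ifngr2 (0.85, SE 0.17). The count was 10 without the first control library, where 1.2% of all genes passed, 18 without the second intravenous library (5.3%) and 19 without the 3 libraries with most retina, lens or muscle marker counts (0.933%).

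In the eye drop group over DED, Gbp2 alone of the 83 rose, to 719.5 ± 46.4 normalized counts in the eye drop group (SD, n = 2) against 300.3 ± 29.3 in DED (SD, n = 3; log2 fold change 1.26, SE 0.18, limma adjusted p = 0.00566). Of all genes tested, 0.193% passed there. The median of the 83 was 0.51, beside -0.03 over all genes. Ifitm1, Ifitm2 and Ifitm3 stood below 0.51, at -0.34, -0.39 and -0.57. The count was 0 without either eye drop library, and 2 without the third intravenous library, where 0.382% of all genes passed. In the eye drop group over control 0 of the 83 passed in limma, beside 0.00472% of all genes, and voom also passed 0. An unadjusted limma p under 0.05 was found for 16 of the 83 and for 2249 of all 21203 genes. The median of the 83 was 0.50, beside 0.01 over all genes. Without the third intravenous library 5 passed there, beside 1.77% of all genes.

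**Figure D4:**
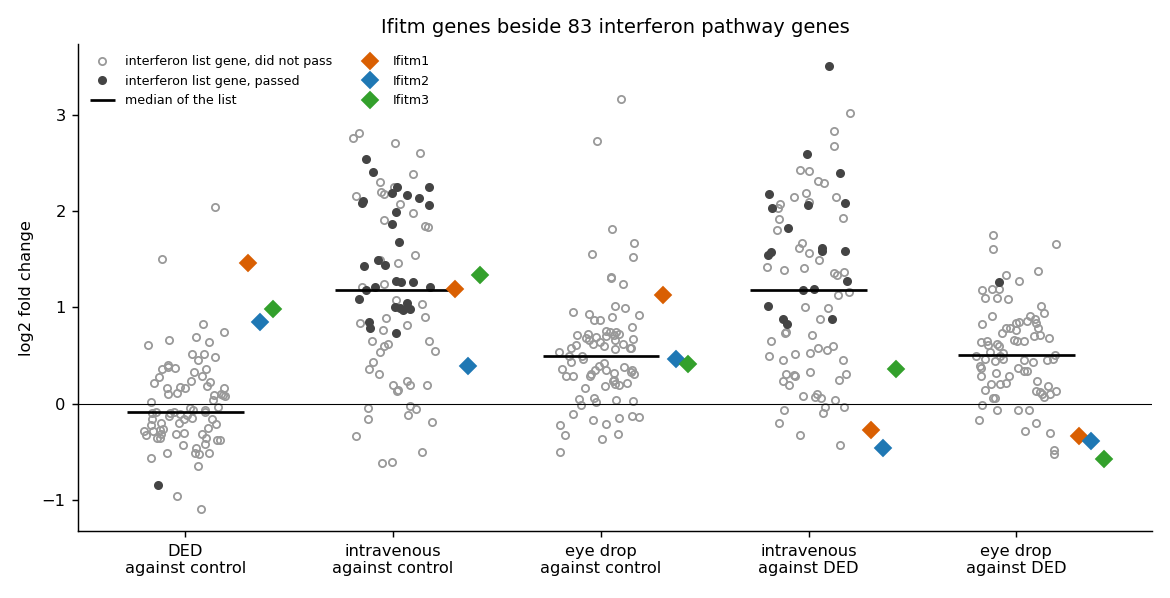
Log2 fold changes of 83 genes in 3 interferon lists (circles, filled where limma's adjusted p was under 0.05) with their median (line), beside Ifitm1, Ifitm2 and Ifitm3 (diamonds), in 5 comparisons. In DED over control the 3 Ifitm genes lie above the list median of -0.09, and in the intravenous group over DED they lie below the list median of 1.19.

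No interferon ligand gene was tested. Of 11 listed, 6 had a line in the table and none passed the filter on low values. Of 7 tested genes whose proteins are known to modify or bind IFITM proteins, 2 passed in 1 comparison, the intravenous group over control, where 11.3% of all genes passed. Nedd4, a ubiquitin ligase that marks IFITM3 for degradation, fell to 1514 ± 142.7 normalized counts in the intravenous group against 2862 ± 639.9 in control (SD, n = 3 each; log2 fold change -0.90, SE 0.18, limma adjusted p = 0.00784). Setd7, a methyltransferase that acts on IFITM3 in human cells, fell by 0.61 on the log2 scale (SE 0.19, limma adjusted p = 0.0447). In the other comparisons 0 of the 7 passed in limma, and at most 2 had an unadjusted p under 0.05; with voom the counts of passing genes were the same. In DED over control Setd7 differed by -0.70 (SE 0.19, limma adjusted p = 0.0776) and Nedd4 by -0.54 (SE 0.18, adjusted p = 0.145).

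The other genes of the CD225 family were low in cornea. Of 10 listed, 5 were tested, and none passed in any comparison in limma or with voom; Prrt1 alone had an unadjusted p under 0.05 in DED over control and in the intravenous group over control. Ifitm10 had between 32.9 and 67.5 normalized counts in the intravenous group, 45.2 and 52.3 in the eye drop group, 27.4 and 40.3 in DED and 43.1 and 63.8 in control. In DED over control its log2 fold change was -0.57 (SE 0.32, limma adjusted p = 0.371), opposite in sign to Ifitm1, Ifitm2 and Ifitm3. Tmem91, another tested gene of the family, had at most 11.1 normalized counts in any library. Its log2 fold change was -0.44 (SE 0.90), though its mean was higher in DED, at 4.20 against 3.38 in control. Trarg1 at 1.25 (SE 0.86) and Ifitm5 at 0.09 (SE 0.68), which were also low, were positive. Prrt1, a brain protein that regulates glutamate receptors, had between 9.13 and 26.3 normalized counts in DED and 0.74 and 7.73 in control (log2 fold change 2.20, SE 0.65, limma adjusted p = 0.105). Ifitm5, the bone-specific member, had at most 4.22 normalized counts in any library, and Ifitm7 was not tested.

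The members lie in 1 stretch of chromosome 7, and the limma adjusted p of their 5 tested neighbours was 0.281 or above in all 6 comparisons. In the order of the GENCODE annotation the stretch runs Nlrp6, Pgghg, Ifitm5, Gm45717, Ifitm2, Ifitm1, Ifitm3, Ifitm6, Gm17387, B4galnt4 and Pkp3. Pkp3, which encodes a desmosome protein and lies past Ifitm6, was abundant, with 7435 normalized counts on average in the intravenous group, 5790 in the eye drop group, 7961 in DED and 6138 in control. It differed by a log2 fold change of 0.39 in DED over control (SE 0.19, limma adjusted p = 0.305). Pgghg, on the other side, differed by 0.33 (SE 0.21, limma adjusted p = 0.432). Nlrp6 and B4galnt4 had group means of at most 10.99 and 15.3 normalized counts.

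Similar sequences limit how firmly reads can be given to 1 member. The stretches below are shown because they mark where reads of the members can be confused. They are the longest run that the coding sequences of Ifitm2 and Ifitm3 share, 69 bases, with the best ungapped match in Ifitm1 and Ifitm6, from GENCODE transcripts (GRCm38, chromosome 7, coding strand); capitals mark bases that differ from Ifitm3.
Ifitm3: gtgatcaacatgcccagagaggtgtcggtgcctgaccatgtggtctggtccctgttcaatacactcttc
Ifitm2: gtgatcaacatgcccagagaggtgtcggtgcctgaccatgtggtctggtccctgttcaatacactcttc
Ifitm1: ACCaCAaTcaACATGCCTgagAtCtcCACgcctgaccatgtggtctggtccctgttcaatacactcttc
Ifitm6: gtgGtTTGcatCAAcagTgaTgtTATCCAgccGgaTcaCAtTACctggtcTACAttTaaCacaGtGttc

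Placed without gaps, Ifitm1 differs from Ifitm3 at 19 of the 69 bases and Ifitm6 at 30. Some of the capitals in Ifitm1 match Ifitm3 at a shifted place, so they overstate the difference. Over their aligned coding sequences Ifitm2 and Ifitm3 are 79.6% identical, Ifitm1 and Ifitm3 80.4%, and Ifitm6 and Ifitm3 66.6%. Cut into words of 50 bases, 48.5% of the Ifitm2 transcript is found in another gene, mostly Gm45717, which overlaps it on the same strand and has no line of its own in the table, and pseudogenes. For Ifitm3 the share is 10.02%, for Ifitm1 6.36% and for Ifitm6 0%. How the authors counted reads that fit several genes is not given in the sources used here, so the level of Ifitm2 is uncertain. Of the Ifitm3 words, 20 are also in Ifitm2 and 15 in Ifitm1.

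The summed levels of some cell type markers differed between the groups, though few of their genes passed. The summed level of 13 vessel markers was between 225 and 333.3 normalized counts in the intravenous group, 178.3 and 291.8 in the eye drop group, 327.1 and 459.1 in DED and 84.7 and 144.9 in control. That of 14 monocyte and macrophage markers was between 1420 and 1741 in the intravenous group, 1457 and 1856 in the eye drop group, 1302 and 1678 in DED and 1015 and 1151 in control. Keratocyte markers (10 genes) summed to between 4572 and 6196 in the intravenous group, 2989 and 7690 in the eye drop group, 3668 and 8739 in DED and 1977 and 3716 in control. Corneal endothelium markers (5 genes) summed to between 1689 and 1794 in the intravenous group, 579.7 and 3177 in the eye drop group, 624.4 and 4470 in DED and 216.8 and 592.3 in control. The 9 neutrophil markers with a line in the table summed to between 45.0 and 212.1 in the intravenous group, 51.5 and 58.9 in the eye drop group, 92.9 and 529.3 in DED and 17.1 and 48.3 in control, with Retnlg, Ly6g, Ngp, Camp and Mmp8 at 0 in all DED libraries. Conjunctival markers (7 genes) were highest in the intravenous group, between 86597 and 108475, against 60215 and 64820 in the eye drop group, 43971 and 57453 in DED and 41928 and 54849 in control.

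Markers of melanocytes and iris (7 genes) summed to between 487.9 and 1929 in the intravenous group, 451.8 and 622.9 in the eye drop group, 605.5 and 1680 in DED and 344.6 and 533.3 in control. In DED over control 2 of these 7 and 1 of the 13 vessel genes rose, beside 1.25% of all genes that passed. None of the tested keratocyte (10), corneal endothelium (5), neutrophil (4) or monocyte and macrophage (14) genes passed there. In the intravenous group over DED 3 of 6 tested conjunctival genes rose, beside 1.45% of all genes. The part of these cells in the levels of the members was not tested. In bulk tissue, fewer cells of a type and less RNA per cell cannot be told apart. Without the 3 libraries with most retina, lens or muscle marker counts, the log2 fold change of Ifitm1 in DED over control was 1.52, against 1.46 with them.

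The genes whose profile over the 11 libraries was most like that of each member were found next. Among 10013 genes with a mean normalized count of at least 50, the highest Pearson correlations of log2 values with Ifitm1 were those of Klk8, a secreted protease of stratified epithelia (r = 0.949), Cd24a, a surface glycoprotein (0.947), Mthfd2l, an enzyme of mitochondrial folate metabolism (0.939), Cstb, an inhibitor of cathepsins (0.939), and Pgk1, an enzyme of glycolysis (0.938). Klk8 averaged 178.7 normalized counts in the intravenous group, 155.9 in the eye drop group, 205.1 in DED and 74.1 in control. After the group means were removed, these 5 correlations lay between 0.632 and 0.886.

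For Ifitm3 the genes most alike were Mcub, a subunit of the mitochondrial calcium channel (r = 0.972), Plpp2, a lipid phosphatase (0.943), Polr2k, a subunit of the RNA polymerases (0.932), Krt6a, a keratin of stressed and stratified epithelia (0.926), and Rab8a, a regulator of vesicle transport (0.922). Krt6a averaged 69798 normalized counts in the intravenous group, 57209 in the eye drop group, 64686 in DED and 49461 in control. For Ifitm2 they were Arhgef10l (0.89), Slc25a12 (0.879), the clock repressor Cry1 (0.879), Rnf222 (0.848) and Ap2a2 (0.841). These correlations describe 11 libraries that share groups and depth, and no p is given.

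**Figure D5:**
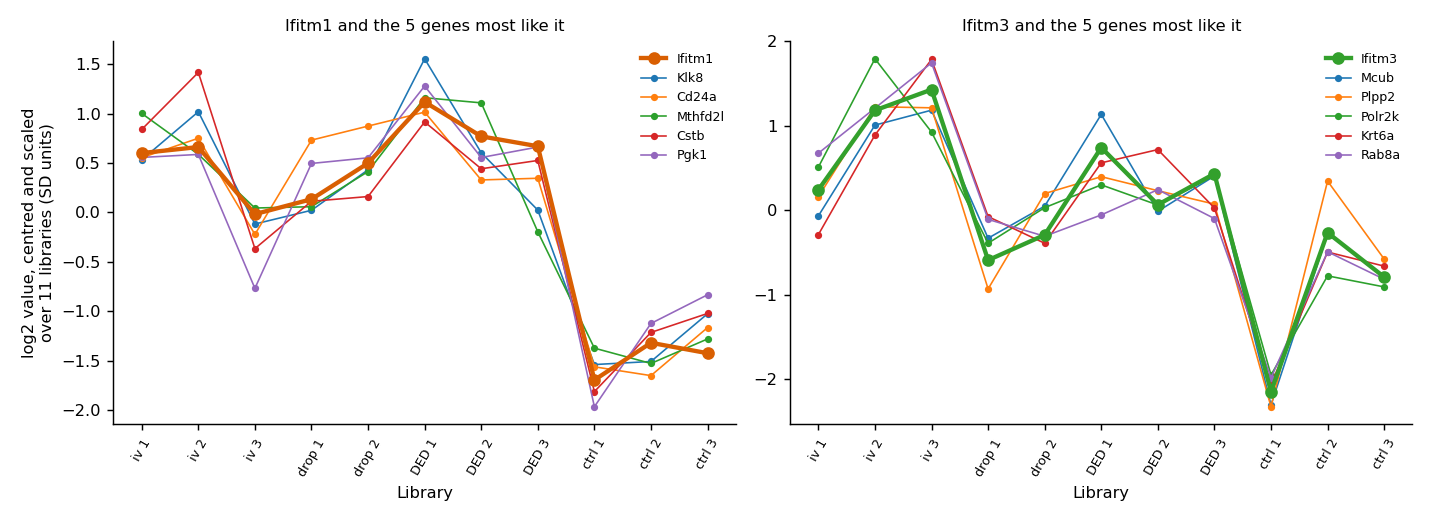
Log2 normalized values of Ifitm1 (left, thick line) and Ifitm3 (right, thick line) with the 5 genes most correlated with each, centred and scaled over the 11 libraries; lines only join libraries of the named groups (iv, intravenous; drop, eye drop; ctrl, control). Ifitm1 and its 5 genes are low in the 3 control libraries, and Ifitm3 and its 5 genes are lowest in the first control library.

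Among themselves the members were compared in the same way. Over the 11 libraries the correlation of log2 values was 0.65 for Ifitm1 and Ifitm2, 0.697 for Ifitm1 and Ifitm3 and 0.583 for Ifitm2 and Ifitm3. With the group means removed it was -0.297 for Ifitm1 and Ifitm2, 0.21 for Ifitm1 and Ifitm3 and 0.485 for Ifitm2 and Ifitm3.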

How the data were processed

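Poly(A) or other selection is not stated; libraries were made from total RNA of cornea with an NEBNext kit, per the labels' protocols. The authors deposited 1 table of log2 values per gene and library; undoing the logarithm and subtracting 1 gave numbers that were whole within 0.01 for 99.9748% of values in 11 columns. The genome build was mm9, per the submitters' processing notes; aligner and counter: not given in the sources used here. The third eye drop column was left out. Lines not whole (10) or named by a date (9) were left out, at most 0.049% of counts.

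Counts were divided by median-of-ratios size factors. The 21203 genes with 1 normalized count or more in 3 or more libraries were fitted on log2(normalized count + 1) with limma 3.58.1 (trend, robust) in R 4.3.3, 4 group means in 1 fit with 7 residual degrees of freedom. The p-values were adjusted by Benjamini-Hochberg within each of 6 comparisons; a gene passed at an adjusted p of 0.05. Because of the pseudocount, fold changes of low genes are understated. The deposited values were log2 of counts, so limma was used and no count model. The fit was tested on simulated data.

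The members and lists were chosen with earlier results of these data known. Named were all members, the other CD225 genes, up to 4 passing genes per list and comparison (or the 2 with the smallest p), the 5 genes most correlated with each member, and the neighbours on the chromosome; 1 gene this rule names is not reported here. The deviations of same-numbered DED and control libraries from their group means correlated at 0.427, 0.2 and 0.109, all over the limit of 0.1. This was taken as pairing, although no label says what same-numbered libraries share. Those of other groups ranged from -0.291 to 0.257 and were not taken as paired. The 0.257, of the second eye drop and second intravenous libraries, exceeds 0.2 and 0.109. A value of 0.124, of the first control and first eye drop libraries, exceeds the limit and 0.109. Only same-numbered libraries were compared, so the check cannot show pairing. Alternatives covered scaling, pseudocount, filter, tool, block, columns and single libraries. Promoter sequences are from RefSeq (GRCm38.p6); transcripts, gene order and lengths are from GENCODE M21 (GRCm38), used for names, order and sequence only.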

Additional observations from a re-analysis of the deposited data

How the results depend on the processing

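Scaling mattered most for the intravenous group, which had the lowest totals. By library totals the median gene moved to -0.25 on the log2 scale in the intravenous group over DED and -0.31 over control, and unscaled to -0.58 and -0.55. By library totals, Ifitm1 was -0.499 in the intravenous group over DED and 0.846 over control, and Ifitm2 0.056 over control. Unscaled, the values over DED were -0.895 for Ifitm1, -1.07 for Ifitm2 and -0.263 for Ifitm3, and over control 0.523, -0.264 and 0.675. The other settings moved these folds by less than the spread between replicates. Ifitm1 in DED over control lay between 1.35 and 1.55.

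The count of interferon genes that passed depended on the settings. Unscaled counts gave 0 in DED over control (0.773% of all genes passed) and 1 in the intravenous over the eye drop group (6.1%). With all 12 columns 2 passed in DED over control (2.8% of all genes). In the eye drop group 2 passed there over DED (0.508%) and 3 over control (1.47%). limma without trend and robust gave 0 in the eye drop group over DED (0.0283%). In the intravenous group it gave 3 over DED (0.307%) and 6 over control (1.75%), and voom gave 12 over DED (1.11%). The replicate block in all groups gave 2 in the eye drop group over DED (0.123%). In the intravenous group it gave 39 over DED (1.69%) and 51 over control (11.6%). In a fit of DED and control alone, added after seeing the data, the block gave 9 (14.6%). Fits of only the 2 groups gave 5 in the eye drop group over DED (0.231%) and 1 over control (0.929%). In the intravenous group over control they gave 17 (6.03%). Leaving out the 3 libraries with most retina, lens or muscle marker counts, also added after seeing the data, gave 0 in DED over control, 0 in the eye drop group over DED, and 11 and 19 in the intravenous group over DED and control.

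Leaving out 1 library at a time, interferon counts ranged between 0 and 5 in DED over control, between 0 and 2 in the eye drop group over DED, between 0 and 5 in the eye drop group over control, between 4 and 26 in the intravenous group over DED, between 10 and 39 in the intravenous group over control, between 0 and 1 in the intravenous over the eye drop group. Where that left 1 eye drop library, its spread was taken from the other groups. The share of all genes that passed moved too. It lay between 0.244% and 5.77% in DED over control. In the intravenous group it lay between 0.316% and 7.59% over DED and between 1.2% and 22.9% over control. It was at most 0.382% in the eye drop group over DED, 1.77% in the eye drop group over control and 2.98% between the routes. The correlation of Ifitm1 and Ifitm2 turned to -0.297 with group means removed. The replicate block changed no call of a member in the fit of all groups. Depth limits Ifitm6, at no more than 3 counts. The cause of these changes was not tested.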
